A study of Sus scrofa with 11 samples.

Results

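Chemokines are small secreted proteins that draw leukocytes and other cells along a gradient, and their receptors are the G-protein-coupled receptors that read it. The genes described here are those of the 2 deposited count tables whose pig symbol is that of a numbered chemokine (CCL, CXCL, CX3CL or XCL), a chemokine receptor (CCR, CXCR, CX3CR or XCR) or an atypical receptor (ACKR), with at least 10 counts in 2 or more libraries. Of 25880 gene identifiers, 14857 carried a symbol, 41 symbols had such a name and 29 reached the count minimum. They were 15 ligands, 10 receptors and 4 atypical receptors, and 28 of them (all but XCR1) entered the tests. Passing the minimum is no evidence of a difference, since a gene read in a single group could pass only by being higher there. CCL26 and CX3CR1 reached 10 counts in the 2 native libraries alone, and CXCL9 in these and stented static replicate 1. All of them thus passed through native, and their lower calls in culture, counted below, are partly fixed by that choice.

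Total RNA of porcine coronary artery was sequenced in 11 libraries of 5 groups. Native arteries gave 2 libraries. The others came from arteries kept in a bioreactor, either with a stent and no flow (stented static, 2 libraries), with a stent under the stronger of the flows used (stented high-flow, 3), without a stent under that flow (high-flow, 2) or without a stent under the weaker flow (low-flow, 2). No other treatment, strain, sex or age is given in the labels, so every comparison with native also compares culture with no culture. Both stented static labels end in a d suffix of 3 and that of stented high-flow replicate 3 in one of 7, with no stated meaning. The number 25, also unexplained, stands in the label of native replicate 2 and in that of stented high-flow replicate 1. Whether libraries came from separate animals is not stated, so the p-values reflect the variation among these samples alone, and that may be technical.

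Conventional chemokine receptors couple to inhibitory G proteins and move the cell toward the ligand, whereas atypical receptors bind chemokines without that signal and mostly take them up and degrade them. CC chemokines act mainly on monocytes, lymphocytes and eosinophils, CXC chemokines with an ELR motif on neutrophils, and the interferon-induced CXC chemokines on activated T cells. In an artery wall the ligands come from endothelium, smooth muscle, fibroblasts and resident macrophages, and CCL2 and CXCL12 are the members best known from work on injured and atherosclerotic vessels.

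Library totals ran from 13.5 to 26.8 in units of 1e6 counts, and 3 counts in a library, the upper limit that a count of 0 allows, correspond to 0.105 to 0.215 counts per 1e6 (CPM, on TMM-scaled library sizes). The smooth muscle markers (MYH11, ACTA2, CNN1 and 4 others) summed to 29100 and 35600 CPM in native and to 438 to 7330 CPM in cultured libraries, and the 6 measured endothelial markers to 787 and 932 CPM and 315 to 996 CPM. The Y-linked genes EIF1AY and KDM5D summed to 21.1 to 46.8 CPM in native, stented high-flow and high-flow libraries and to 0 to 0.0428 CPM in stented static and low-flow libraries, so these groups differ in Y-linked transcripts as well as in treatment. Cardiomyocyte markers summed to 727 CPM in native replicate 1 and to 7.31 CPM or less in every other library. In bulk RNA, fewer cells of a type and less RNA per cell cannot be told apart.

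The 29 genes together took 0.0762% and 0.0883% of all counts in native libraries and 0.0816% to 0.235% in cultured ones. Their make-up differed between groups. CCL2 and CXCL14 held 10.1% and 13.4% of the counts of the 29 genes in native arteries, 37.9% and 42.3% in stented static vessels, 66.5% to 81.2% in stented high-flow vessels, 73.9% and 75.4% in high-flow vessels and 63.0% and 66.8% in low-flow vessels. In each cultured library these 2 ligands thus held a larger share than in either native one.

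Against native, the quasi-likelihood test of edgeR (Benjamini-Hochberg adjusted, threshold 0.05) called 13 of 28 tested members in stented static vessels, 6 higher and 7 lower, where 12.7% of all 15348 genes tested were called (5.54% higher, 7.19% lower). In stented high-flow vessels it called 18, 7 higher and 11 lower, against 24.3% of all genes (10.4% and 13.9%). High-flow vessels had 15 calls, 7 higher and 8 lower, against 14.8% (5.94% and 8.86%), and low-flow vessels had 13, 5 higher and 8 lower, against 12.4% (5.03% and 7.38%). The median log2 fold change of the tested members was -0.81, -1.29, -1.39 and -1.2 in that order, and over all genes tested it was 0.02, 0.06, 0.02 and 0.

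Across the 4 comparisons, which share the native libraries, 20 members were called at least once (29.2% of all genes were). CCL2, CXCL14 and CCR1 were higher in all 4 (2.20% of all genes were). CXCL2, CXCL9, CXCL12, CCL14, CCL19, CCL26 and ACKR1 were lower in all 4 (3.82% of all genes). Of these, CCL26 and CXCL9 met the count minimum only through native. Of 15 ligands, 2 or 3 were higher and 6 to 8 lower in each comparison, with medians of -1.32, -3.07, -3.08 and -2.75. The 9 tested receptors had medians of 0.26, -0.53, -0.42 and 0.71, and the 4 atypical receptors medians of 1.90, 1.22, 1.08 and 1.2. Only the native libraries carry these comparisons on the untreated side: of 63 calls made for members in the 7 comparisons of the study, 25 were lost without native replicate 1 and 26 without native replicate 2, and 31 were kept whichever single library was left out.

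**Figure D1:**
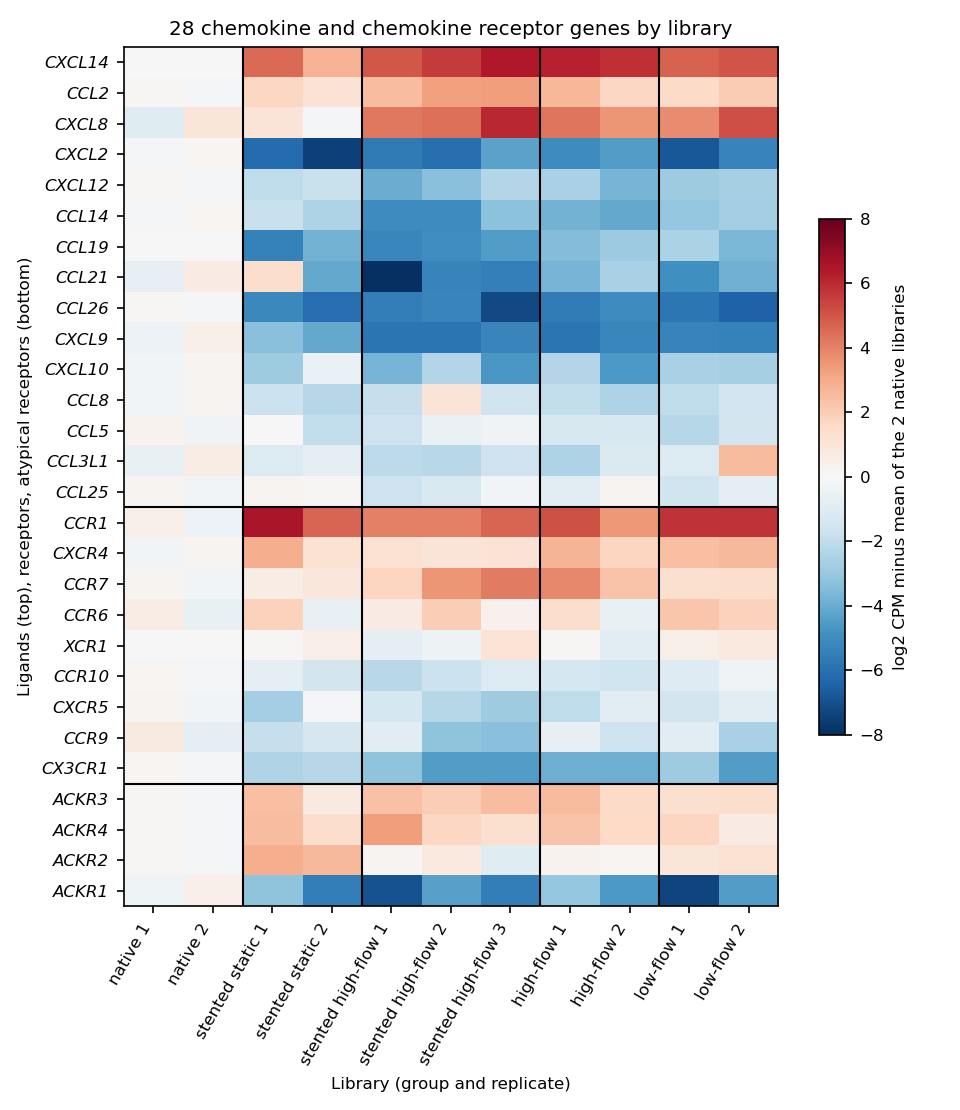
Each cell is the log2 CPM of 1 of 28 genes (vertical axis) in a library (horizontal axis) minus the mean of the 2 native libraries, red for higher and blue for lower, with ligands above, receptors in the middle and atypical receptors below. CXCL14, CCL2 and CCR1 are red in all 9 cultured libraries, palest for CCL2 in stented static, while CXCL2, CXCL12, CCL14, CCL19, CCL26, CXCL9 and ACKR1 are blue in all 9 of them.

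**Figure D2:**
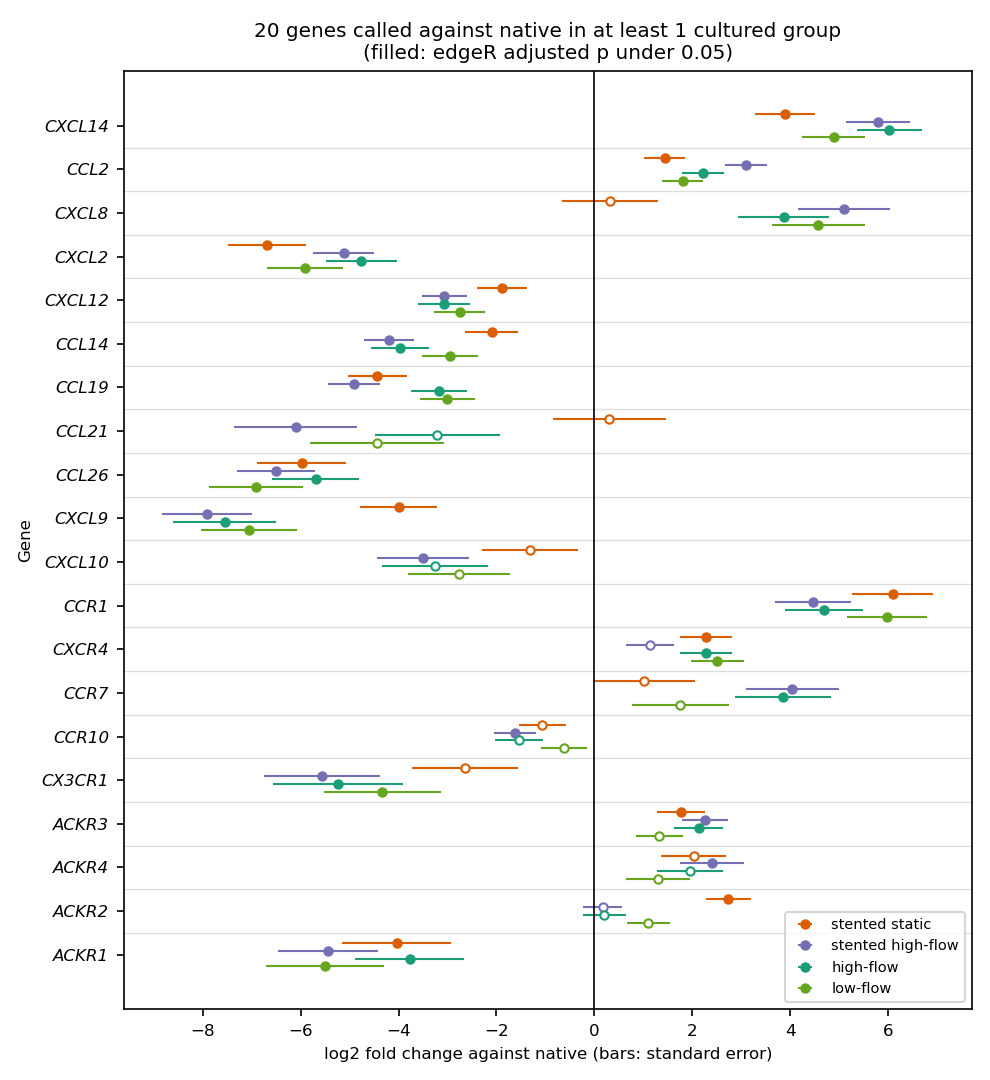
Points give the log2 fold change against native (horizontal axis) of the 20 genes called in at least 1 cultured group (vertical axis), coloured by group, with bars for the standard error and filled points for an adjusted p under 0.05. The fitted values of CXCL9 and CX3CR1 in groups with 1 or 2 pooled counts depend on the prior count and are drawn only to show direction.

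The ligands that rose were led by CXCL14, a chemokine made by epithelia and fibroblasts in the resting state (chromosome 2, 137803988 to 137813118; this and the other positions are RefSeq's for Sscrofa11.1). CXCL14 stood at 10.9 and 11.3 CPM in native arteries, 255 and 76.1 in stented static vessels, 353, 532 and 967 in stented high-flow vessels, 821 and 636 in high-flow vessels and 292 and 368 in low-flow vessels. Every cultured library was above both native ones, and the stented static libraries lay below those of the 3 perfused groups. The log2 fold change of CXCL14 was 3.90 ± 0.61 (SE) in stented static vessels, 5.80 ± 0.65 in stented high-flow vessels, 6.03 ± 0.67 in high-flow vessels and 4.89 ± 0.64 in low-flow vessels (edgeR adjusted p = 0.00312, 0.000269, 0.000699 and 0.00145). All 4 calls held whichever library was left out, although the stented static value was 2.79 without stented static replicate 1 and 4.52 without replicate 2.

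CCL2 (chromosome 12, 40798109 to 40800013) encodes monocyte chemoattractant protein, the main ligand of CCR2. It measured 106 and 92.1 CPM in native arteries, 315 and 223 in stented static vessels, 553, 968 and 1020 in stented high-flow vessels, 621 and 305 in high-flow vessels and 281 and 411 CPM in low-flow vessels. No cultured library overlapped with native, and the 3 stented high-flow libraries were all above both stented static ones. CCL2 rose by 1.44 ± 0.42, 3.10 ± 0.43, 2.23 ± 0.43 and 1.81 ± 0.42 on the log2 scale, with the groups in the order used above (edgeR adjusted p = 0.0452, 0.000745, 0.00725 and 0.0200). The stented high-flow call held in each omission. In stented static it was lost without either native library, either stented static library, stented high-flow replicate 2 or either low-flow library (adjusted p = 0.0524 to 0.234). The high-flow call was lost without either native library or high-flow replicate 1 (0.0608 to 0.0713, with a log2 fold change of 1.63 without that replicate), and the low-flow call without either native or either low-flow library (0.0629 to 0.138).

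CXCL8 (chromosome 8, 69932646 to 69935861) is interleukin-8, the neutrophil chemoattractant that acts through CXCR1 and CXCR2. Its level was 0.130 and 0.748 CPM in native and 0.790 and 0.304 in stented static vessels, against 7.96, 9.26 and 29.4 in stented high-flow vessels, 8.34 and 4.93 in high-flow vessels and 5.82 and 15.8 CPM in low-flow vessels. Thus all 7 libraries from perfused vessels lay above all 4 from native or static ones. Against native, CXCL8 rose by 5.10 ± 0.94 in stented high-flow vessels, 3.87 ± 0.93 in high-flow vessels and 4.58 ± 0.95 in low-flow vessels (edgeR adjusted p = 0.00345, 0.0193 and 0.0121), and the stented static difference of 0.33 ± 0.98 was not called (0.853). Native replicate 1 held 2 counts of CXCL8 and replicate 2 held 13, and the stented high-flow value ran from 4.38 without replicate 1 to 6.89 without replicate 2. The high-flow call was lost without either native library or high-flow replicate 1 (0.0506 to 0.142, with values of 3.15 and 5.66 without native replicate 1 and 2). The low-flow call was lost without native replicate 1 or low-flow replicate 2 (0.103 and 0.0795, with 3.84 and 3.69), and the value was 6.35 without native replicate 2.

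CXCL2, also a neutrophil chemoattractant and an early NF-kB target, lies 221 kb from CXCL8 (70157253 to 70159145) and went the other way. It was at 278 and 361 CPM in native arteries, 4.39 and 1.70 in stented static vessels, 6.17, 4.71 and 16.4 in stented high-flow vessels, 9.41 and 14.1 in high-flow vessels and 2.78 and 7.76 CPM in low-flow vessels. The highest cultured library, at 16.4 CPM, stayed far under the lower native one. The ratio of mean CPM put native 105-fold above stented static, 35.1-fold above stented high-flow, 27.2-fold above high-flow and 60.6-fold above low-flow vessels. Log2 fold changes were -6.69 ± 0.80, -5.12 ± 0.62, -4.76 ± 0.73 and -5.91 ± 0.77 (edgeR adjusted p = 0.000904, 0.000384, 0.00241 and 0.00139), and no single omission removed a call of CXCL2. They were -7.53 without stented static replicate 1 and -5.88 without stented high-flow replicate 3 in those groups, and -6.83 without low-flow replicate 2.

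CXCL12 (chromosome 14, 91516383 to 91543857), which holds progenitor cells and lymphocytes through CXCR4, was read at 82.4 and 73.3 CPM in native arteries, 19.2 and 22.8 in stented static vessels, 4.81, 7.52 and 15.3 in stented high-flow vessels, 12.7 and 5.70 in high-flow vessels and 10.7 and 12.4 CPM in low-flow vessels. Both native libraries were above all 9 cultured ones, and both stented static libraries above the 7 perfused ones. The log2 fold change was -1.89 ± 0.51 in stented static, -3.07 ± 0.46 in stented high-flow, -3.08 ± 0.53 in high-flow and -2.75 ± 0.52 in low-flow vessels (edgeR adjusted p = 0.0344, 0.00109, 0.00439 and 0.00857). CXCL12 kept its calls in stented high-flow and high-flow vessels in each omission, with -3.77 in high-flow without replicate 1. Its stented static call was lost without either native, either stented static or either low-flow library (0.0562 to 0.165), and its low-flow call without native replicate 1 or either low-flow library (0.0530 to 0.0943).

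CCL14 (chromosome 12, 39611887 to 39616050) encodes a constitutive plasma chemokine that acts on CCR1 after trimming. Native libraries held 76.0 and 96.6 CPM, stented static 24.9 and 15.2, stented high-flow 2.58, 2.58 and 8.90, high-flow 6.21 and 4.82 and low-flow 9.81 and 12.4 CPM. As with CXCL12, native was highest, stented static came next without overlap, and the perfused groups were lowest. CCL14 fell by 2.1 ± 0.55, 4.19 ± 0.51, 3.97 ± 0.60 and 2.95 ± 0.57 on the log2 scale in the order above (edgeR adjusted p = 0.0316, 0.000413, 0.00235 and 0.00917), and without stented high-flow replicate 3 the stented high-flow value was -5.06. The stented static call was lost without either native, either stented static or either low-flow library (0.0512 to 0.178), and the low-flow call without native replicate 2 or either low-flow library (0.0612 to 0.1).

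CCL19 and CCL21 are the ligands of CCR7, which brings dendritic cells and naive T cells to lymph nodes, and they lie 15.9 kb apart on chromosome 10 (32110366 to 32112529 and 32093783 to 32094482). CCL19 measured 63.6 and 66.1 CPM in native arteries, 1.42 and 4.68 in stented static vessels, 1.65, 1.96 and 2.81 in stented high-flow vessels, 5.75 and 8.67 in high-flow vessels and 11.3 and 5 CPM in low-flow vessels. All cultured libraries were below native. Its log2 fold changes were -4.43 ± 0.61, -4.91 ± 0.53, -3.17 ± 0.57 and -3.0 ± 0.56 (edgeR adjusted p = 0.00163, 0.000195, 0.00521 and 0.00786). The stented static value moved to -3.77 without stented static replicate 1 and to -5.50 without replicate 2, the high-flow call was lost without high-flow replicate 1 (0.0614), and the low-flow call without low-flow replicate 2 (0.0832; the value was -3.69 without replicate 1).

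CCL21 was read at 47.0 and 115 CPM in native arteries, 196 and 4.32 in stented static vessels, 0.144, 1.68 and 1.59 in stented high-flow vessels, 5.44 and 12.1 in high-flow vessels and 2.40 and 5.03 CPM in low-flow vessels. The stented static libraries lay on opposite sides of native, and the 7 perfused libraries were all below it. CCL21 fell in stented high-flow vessels by 6.10 ± 1.26 on the log2 scale (edgeR adjusted p = 0.00610), with -5.26 without native replicate 2. The differences of -3.21 ± 1.28 in high-flow and -4.44 ± 1.36 in low-flow vessels were not called (0.115 and 0.0550). DESeq2 called CCL21 lower in low-flow vessels (DESeq2 adjusted p = 0.0204) but not in high-flow ones (0.11). In stented static vessels the log2 fold change was 0.31 ± 1.16 (0.889) with both libraries and -4.22 without replicate 1 (0.0498), so that library alone sets the sign. CCL21 is also known from lymphatic endothelium, and a list for such vessels held 5 other genes. FLT4, MMRN1, PROX1 and LYVE1 were higher in stented static replicate 1 than in replicate 2, as CCL21 was, and PDPN was not. Between stented static replicates 1 and 2, FLT4 was at 27.8 and 5.35 CPM, MMRN1 at 15.8 and 6.33, PROX1 at 2.49 and 0.304, LYVE1 at 14.9 and 9.49 and PDPN at 182 and 193 CPM. LYVE1 was called lower than native in the 3 perfused groups and PDPN, which stromal cells also make, higher in all 4 cultured groups, while FLT4, MMRN1 and PROX1 were not called. The sum over the list, 108 and 184 CPM in native, 439 and 219 in stented static and 174 to 375 CPM in perfused libraries, was mostly PDPN in the perfused libraries and included CCL21 itself. Adipocyte markers summed to 1780 and 1120 CPM in native, 2080 and 125 in stented static and 33.3 to 199 CPM in perfused libraries. The part of these tissues in the CCL21 reading was not tested.

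CCL26 (chromosome 3, 10381306 to 10385677), or eotaxin-3, attracts eosinophils through CCR3. Its 16.1 and 13.6 CPM in native compared with 0.316 and 0.122 in stented static vessels, 0.215, 0.280 and 0 in stented high-flow vessels, 0.204 and 0.359 in high-flow vessels and 0.171 and 0.0699 CPM in low-flow vessels. CCL26 was thus read well above the floor only in native arteries. It met the count minimum through these alone, so its lower calls in culture are partly fixed by the choice of members. The log2 fold changes were -5.98 ± 0.91, -6.51 ± 0.80, -5.69 ± 0.89 and -6.91 ± 0.96 (edgeR adjusted p = 0.00262, 0.000413, 0.00267 and 0.00186), and the calls held in each omission. The stented static value was -6.84 without stented static replicate 1, the stented high-flow value -7.26 without replicate 2 and -5.86 without replicate 3, and the low-flow value -7.60 without replicate 1.

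CXCL9 and CXCL10, which interferon gamma induces and which draw CXCR3-bearing T cells, lie 23.4 kb apart on chromosome 8 (71665541 to 71670236 and 71693641 to 71695948). CXCL9 measured 4.04 and 7.88 CPM in native and 0.474 and 0.243 CPM in stented static vessels, and the 7 perfused libraries held 0 or 1 count each. CXCL9 met the count minimum only through native, so its lower calls are partly fixed by that choice. In stented static vessels it fell by 4.0 ± 0.79 on the log2 scale (edgeR adjusted p = 0.00948), but without native replicate 2 it was at -3.39 and not called (0.103). For the other groups the pooled counts were 199 in native arteries, 1 in stented high-flow vessels, 1 in high-flow vessels and 2 in low-flow vessels. Scaled for depth, native was 323-fold (95% counting interval 57.3 to 12800), 238-fold (42.2 to 9440) and 158-fold (43.1 to 1310) above them (adjusted p = 0.000305, 0.00168 and 0.00187). Such intervals cover counting error only.

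CXCL10 was at 5.14 and 7.19 CPM in native arteries, 0.751 and 4.26 in stented static vessels, 0.359, 1.12 and 0.141 in stented high-flow vessels, 1.12 and 0.154 in high-flow vessels and 0.942 and 0.874 CPM in low-flow vessels. Native was above every cultured library, but the call was made in stented high-flow vessels only (-3.50 ± 0.94, edgeR adjusted p = 0.0211) and was lost without native replicate 1, native replicate 2 or stented high-flow replicate 3 (0.0522 to 0.101, and -4.66 without stented high-flow replicate 2). The adjusted p of CXCL10 was 0.411, 0.0649 and 0.108 in stented static, high-flow and low-flow vessels. The T, NK and B lymphocyte markers summed to 46.4 and 39.0 CPM in native arteries, 66.9 and 22.2 in stented static and 15.5 to 34.0 CPM in perfused libraries. The T cell gene CD3E had 64 pooled counts in native and 0 in each perfused group. NKG7, a gene of NK and cytotoxic T cells, was at 4.88 and 5.06 CPM in native, 41.6 and 8.94 in stented static, where it was called higher (2.35 ± 0.68, edgeR adjusted p = 0.0454), and 3.20 to 18.7 CPM in perfused libraries. The B cell gene CD79A was at 7.23 and 1.78 CPM in native and 4.32 to 9.60 CPM in cultured libraries and was not called. Of 8 tested genes of the list 1, 0, 0 and 0 were called higher and 0, 5, 4 and 4 lower, where 5.54%, 10.4%, 5.94% and 5.03% of all genes were called higher and 7.19%, 13.9%, 8.86% and 7.38% lower. What part these cells had in the CXCL9 and CXCL10 levels was not tested.

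**Figure D3:**
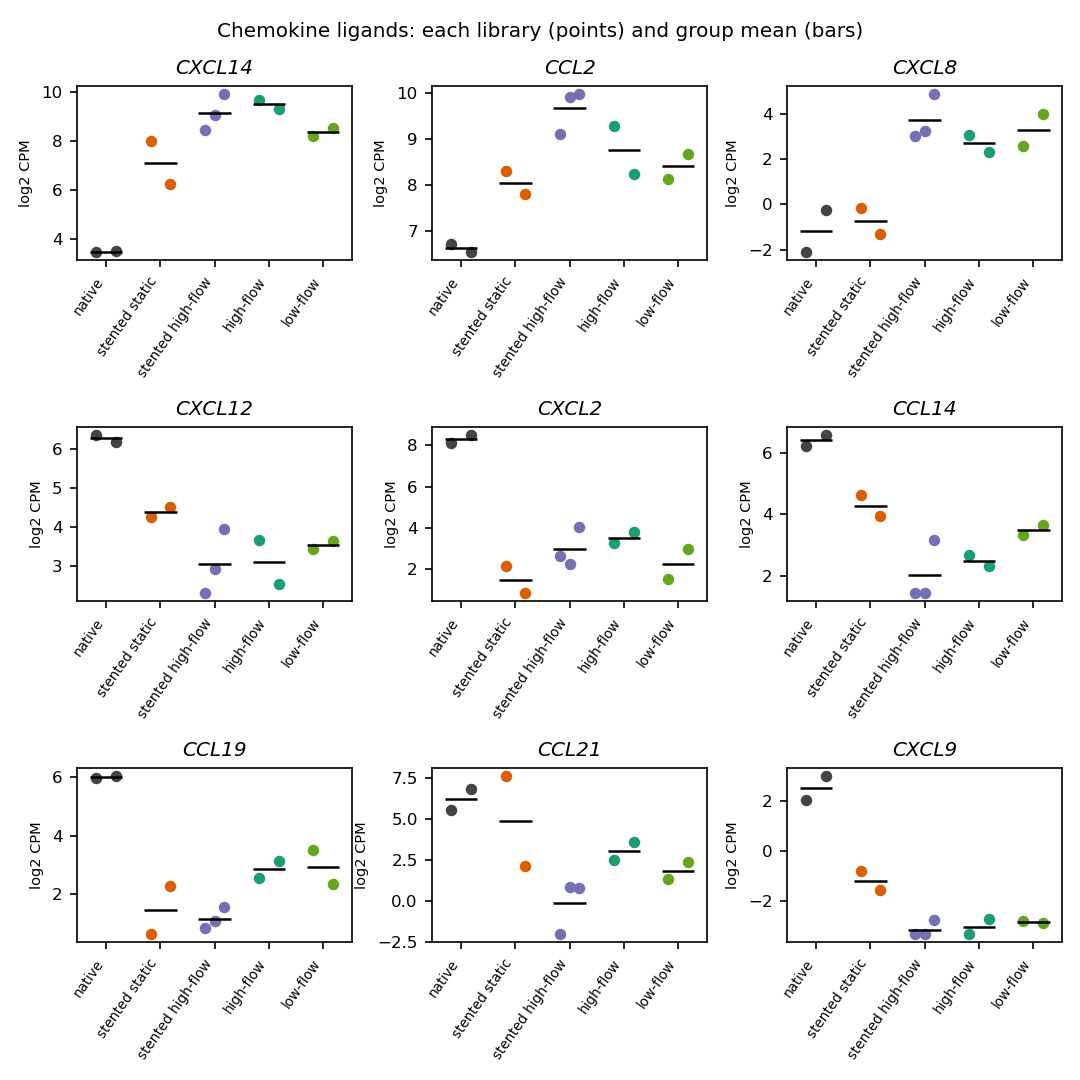
Each panel shows 1 ligand, with the log2 CPM of each library as a point (vertical axis, with its own range per panel) by group (horizontal axis) and the group mean as a bar. CXCL8 separates the 7 perfused libraries from the 4 native and stented static ones, while CCL21 splits the stented static pair, at 196 and 4.32 CPM.

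The remaining ligands were not called against native in the main edgeR fit of all libraries. With no filter on counts, edgeR called CCL8 in high-flow and CCL3L1 in stented high-flow vessels. CCL8, a second monocyte chemoattractant 56.1 kb from CCL2 (chromosome 12, 40740468 to 40741970), was at 13.3 and 17.7 CPM in native and between 2.67 and 5.17 CPM in 8 of the 9 cultured libraries. Stented high-flow replicate 2 held 30.8 CPM of CCL8, above native. DESeq2 called CCL8 lower in stented static and high-flow vessels (adjusted p = 0.0467 and 0.0204; 0.130 and 0.0928 with edgeR), and edgeR called it in all 4 comparisons when stented high-flow replicate 2 was left out. CCL3L1, a macrophage inflammatory protein gene that acts on CCR1 and belongs to a family of near copies, was at 0.356 to 3.68 CPM in 10 libraries and at 14.8 CPM in low-flow replicate 2, and DESeq2 called it lower in stented high-flow vessels (adjusted p = 0.0386; 0.0905 with edgeR). The T cell and monocyte attractant CCL5 ranged from 1.76 to 11.2 CPM and the CCR9 ligand CCL25 from 0.574 to 2.34 CPM over all libraries. CCL5 was called lower in low-flow vessels by DESeq2 (adjusted p = 0.03; 0.0944 with edgeR), and by edgeR without either stented static library.

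Among the receptors, CCR1 was the one called higher in all 4 comparisons. It binds CCL3, CCL5 and CCL14 among others and is carried by monocytes and macrophages (chromosome 13, 29227218 to 29233862). CCR1 was read at 0.651 and 0.288 CPM in native arteries, 50.9 and 13.4 in stented static vessels, 8.75, 8.92 and 13.5 in stented high-flow vessels, 18.3 and 5.90 in high-flow vessels and 29.2 and 30.0 CPM in low-flow vessels. The lowest cultured library was several-fold above the higher native one. The gene rose by 6.10 ± 0.83, 4.47 ± 0.77, 4.69 ± 0.80 and 5.98 ± 0.82 on the log2 scale (edgeR adjusted p = 0.00156, 0.00241, 0.00410 and 0.00181), and all 4 calls held in each omission. Without native replicate 1 these values were 6.77, 5.15, 5.37 and 6.65. Without stented static replicate 1 the stented static value was 4.85 and without replicate 2 6.77, and without high-flow replicate 1 the high-flow value was 3.66 and without replicate 2 5.33.

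The 12 macrophage and monocyte markers summed to 570 and 551 CPM in native arteries, 2340 and 1010 in stented static vessels, 476, 416 and 848 in stented high-flow vessels, 646 and 403 in high-flow vessels and 906 and 1140 CPM in low-flow vessels, with none at 0 throughout. Of these 12, 4 were called higher in stented static vessels, 2 in stented high-flow vessels, 2 in high-flow vessels and 3 in low-flow vessels, and 0, 1, 1 and 0 lower, where 5.54%, 10.4%, 5.94% and 5.03% of all genes were called higher and 7.19%, 13.9%, 8.86% and 7.38% lower. The markers did not move as one. CD163 alone was at 55.2 and 46.1 CPM in native, 1080 and 445 in stented static and 93.1 to 356 CPM in perfused libraries. CSF1R was at 105 and 94.4 CPM in native, 94.5 and 49.5 in stented static and 9.09 to 52.3 CPM in perfused libraries. The part of macrophage number in CCR1 was not tested. CCR1 overlaps XCR1 by 6.58 kb in RefSeq (XCR1 spans 29150376 to 29233802), and without knowing whether counting used strand their reads cannot be told apart. XCR1 itself was at 0.0513 to 0.515 CPM.

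CXCR4, the receptor of CXCL12 (chromosome 15, 15663652 to 15666706), was at 3.06 and 4.31 CPM in native arteries, 27.3 and 8.45 in stented static vessels, 8.47, 7.63 and 8.29 in stented high-flow vessels, 24.4 and 11.9 in high-flow vessels and 19.7 and 22.5 CPM in low-flow vessels. Every cultured library was above native, and the stented high-flow libraries were below those of both unstented groups. CXCR4 rose by 2.28 ± 0.53 in stented static vessels, 2.29 ± 0.53 in high-flow vessels and 2.51 ± 0.54 in low-flow vessels (edgeR adjusted p = 0.0204, 0.0168 and 0.0137), whereas the stented high-flow difference of 1.14 ± 0.49 was not called (0.116). Each of the 3 calls was lost without either native library. The stented static call was also lost without stented static replicate 1 (0.0965 to 0.164 over these omissions, with a value of 1.21 without that replicate and 2.88 without replicate 2), the high-flow call without high-flow replicate 1 (0.0749 to 0.128, with 1.69) and the low-flow call without either low-flow library (0.0653 to 0.118).

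CCR7 (chromosome 12, 21857286 to 21869211) is the receptor of CCL19 and CCL21. It was read at 0.195 and 0.115 CPM in native arteries, 0.277 and 0.365 in stented static vessels, 0.718, 2.86 and 4.31 in stented high-flow vessels, 3.46 and 1.13 in high-flow vessels and 0.514 and 0.559 CPM in low-flow vessels. Both high-flow groups lay above the low-flow, stented static and native libraries. CCR7 rose by 4.05 ± 0.95 in stented high-flow vessels and by 3.85 ± 0.98 in high-flow ones (edgeR adjusted p = 0.0111 and 0.0240), and was not called in stented static (1.02 ± 1.04, 0.557) or low-flow vessels (1.76 ± 0.99, 0.273). Native libraries held 5 counts of CCR7 in all, and without either native library both calls were lost (0.0759 to 0.158). The high-flow value was 2.83 without high-flow replicate 1, where the call was lost, and 4.48 without replicate 2. The low-flow against high-flow difference of CCR7 was -2.08 ± 0.83 and not called (0.584).

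CX3CR1, the receptor of fractalkine on patrolling monocytes and resident macrophages (chromosome 13, 23944386 to 23957567), was at 2.34 and 1.96 CPM in native arteries, 0.316 and 0.365 in stented static and 0 to 0.214 CPM in the perfused libraries. Like CCL26, it met the count minimum through the native libraries alone, so its lower calls are partly fixed by that choice. Native had 70 pooled counts and stented high-flow and high-flow had 2 each, so that native was 56.8-fold (95% counting interval 15.1 to 478) and 41.8-fold (11.2 to 352) higher (edgeR adjusted p = 0.00741 and 0.0245). In low-flow vessels the log2 fold change was -4.33 ± 1.2 (0.0392), and in stented static -2.64 ± 1.08, which was not called (0.129). The stented high-flow call of CX3CR1 held in each omission. The high-flow call was lost without either native or either high-flow library (0.0855 to 0.157), and the low-flow call without any one of the native, high-flow or low-flow libraries (0.0580 to 0.214, with a value of -3.28 without low-flow replicate 2).

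CCR10, whose ligands CCL27 and CCL28 belong to skin and mucosa (chromosome 12, 20157627 to 20159518), was at 11.1 and 9.26 CPM in native arteries, 6.16 and 3.59 in stented static vessels, 2.15, 3.03 and 4.68 in stented high-flow vessels, 3.82 and 3.23 in high-flow vessels and 4.88 and 8.42 CPM in low-flow vessels. All cultured libraries lay below native. In the main edgeR fit of all libraries, CCR10 was called in stented high-flow vessels alone (-1.62 ± 0.43, edgeR adjusted p = 0.0197). It lost that call without either native library or stented high-flow replicate 2 (0.0649 to 0.130). DESeq2 also called CCR10 in high-flow vessels (-1.56, DESeq2 adjusted p = 0.0133, where edgeR gave 0.0568). Of its ligands, CCL27 had 0 counts in every library and CCL28 had 4 over all 11.

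Other receptors read at low levels were not called in the main edgeR fit of all libraries. CXCR5, which guides B cells to CXCL13, was at 3.06 and 2.24 CPM in native and 0.281 to 2.49 CPM in culture. In stented high-flow vessels its log2 fold change was -2.28 ± 0.83 (edgeR adjusted p = 0.0670), and DESeq2 called it (-2.31, adjusted p = 0.0312). It was also called by edgeR with no filter on counts, and without either stented static library or stented high-flow replicate 1. CCR9 was at 2.28 and 0.805 CPM in native and 0.0468 to 0.814 CPM in culture, and CCR6, the receptor of CCL20, at 0 to 0.600 CPM throughout. CCR9 was at -2.58 ± 1.07 in stented high-flow vessels (edgeR adjusted p = 0.104) and was called there when stented high-flow replicate 1 was left out.

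The atypical receptors moved in different directions. ACKR1, the Duffy antigen receptor, carries many CC and CXC chemokines across venular endothelium and is also found on red cells (chromosome 4, 91224089 to 91225610). It was at 23.4 and 39.3 CPM in native arteries, 3.16 and 0.547 in stented static vessels, 0.144, 1.40 and 0.562 in stented high-flow vessels, 3.46 and 1.13 in high-flow vessels and 0.0856 and 1.26 CPM in low-flow vessels. Native lay above all cultured libraries without overlap. ACKR1 fell by 4.04 ± 1.12, 5.44 ± 1.03, 3.77 ± 1.11 and 5.50 ± 1.21 on the log2 scale (edgeR adjusted p = 0.0389, 0.00402, 0.0434 and 0.0157). Only the stented high-flow call held in each omission (-6.36 without stented high-flow replicate 2). The stented static, high-flow and low-flow calls were lost without either native library, and the stented static and high-flow ones also without either library of their own group (0.0559 to 0.182 and 0.103 to 0.202). The low-flow call was further lost without low-flow replicate 1 (0.0521 to 0.111 over the 3 omissions, with a value of -4.62 without that replicate and -8.40 without replicate 2). The red cell gene HBB was at 35.3 and 47.4 CPM in native and 0 to 0.128 CPM in cultured libraries. The platelet gene GP9 was at 4.04 and 3.28 CPM in native and 2.31 to 10.1 CPM in cultured libraries and was not called. PPBP, also of platelets, was called higher in the perfused groups (values below). The endothelial sums are given above. Of 6 endothelial markers, 4 were called lower in stented high-flow vessels (median -1.61), where ERG had a higher mean than native (125 against 74.4 CPM). In each other cultured group 1 was called lower (medians -0.24 to -0.69), and 0 were called higher. Of all genes, 13.9% were called lower in stented high-flow vessels and 7.19% to 8.86% in the other groups. What part these cells had in ACKR1 was not tested.

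ACKR2, or D6, takes up and degrades inflammatory CC chemokines, CCL2 among them (chromosome 13, 26291583 to 26329506). Its level was 35.5 and 31.2 CPM in native arteries, 246 and 199 in stented static vessels, 37.9, 58.0 and 17.1 in stented high-flow vessels, 39.7 and 36.8 in high-flow vessels and 65.0 and 77.4 CPM in low-flow vessels. The stented static libraries were above all 9 others and the low-flow pair above the remaining 7. Stented static and low-flow are also the groups that lack Y-linked transcripts, so treatment and Y-linked transcripts cannot be told apart in that order. ACKR2 rose by 2.74 ± 0.46 in stented static vessels (edgeR adjusted p = 0.00440) and missed the threshold without native replicate 2 (0.0513). The differences from native were 0.17 ± 0.40 in stented high-flow vessels, 0.20 ± 0.44 in high-flow vessels and 1.10 ± 0.44 in low-flow vessels, none of them called (0.788, 0.801 and 0.128).

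ACKR3 removes CXCL12 (chromosome 15, 136370457 to 136382559) and was at 55.5 and 49.7 CPM in native arteries, 274 and 87.5 in stented static vessels, 265, 202 and 295 in stented high-flow vessels, 307 and 155 in high-flow vessels and 126 and 138 CPM in low-flow vessels. All cultured libraries exceeded native. ACKR3 rose by 1.78 ± 0.49, 2.27 ± 0.47 and 2.13 ± 0.50 on the log2 scale in stented static, stented high-flow and high-flow vessels (edgeR adjusted p = 0.0376, 0.00651 and 0.0166), and the low-flow difference of 1.33 ± 0.48 was not called (0.0979). All 3 calls were lost without either native library (0.0579 to 0.203). The stented static call was also lost without stented static replicate 1, stented high-flow replicate 2 or either low-flow library (0.0501 to 0.325), with values of 0.75 without stented static replicate 1 and 2.38 without replicate 2. The high-flow call was also lost without high-flow replicate 1 (0.123), at 1.56.

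ACKR4 clears CCL19, CCL21 and CCL25 (chromosome 13, 73773862 to 73777770). It was read at 9.96 and 8.74 CPM in native arteries, 51.1 and 25.1 in stented static vessels, 96.8, 30.1 and 22.6 in stented high-flow vessels, 45.2 and 27.7 in high-flow vessels and 31.3 and 14.6 CPM in low-flow vessels. Native was below all cultured libraries. ACKR4 was called in stented high-flow vessels (2.41 ± 0.65, edgeR adjusted p = 0.0214), without either native library the call was lost (0.118 and 0.127), and without stented high-flow replicate 1 the value was 1.5. The other differences were 2.03 ± 0.67, 1.96 ± 0.67 and 1.30 ± 0.66 in stented static, high-flow and low-flow vessels (0.0718, 0.0737 and 0.225). DESeq2 called ACKR4 higher in stented static and high-flow vessels as well (DESeq2 adjusted p = 0.0143 and 0.0185).

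**Figure D4:**
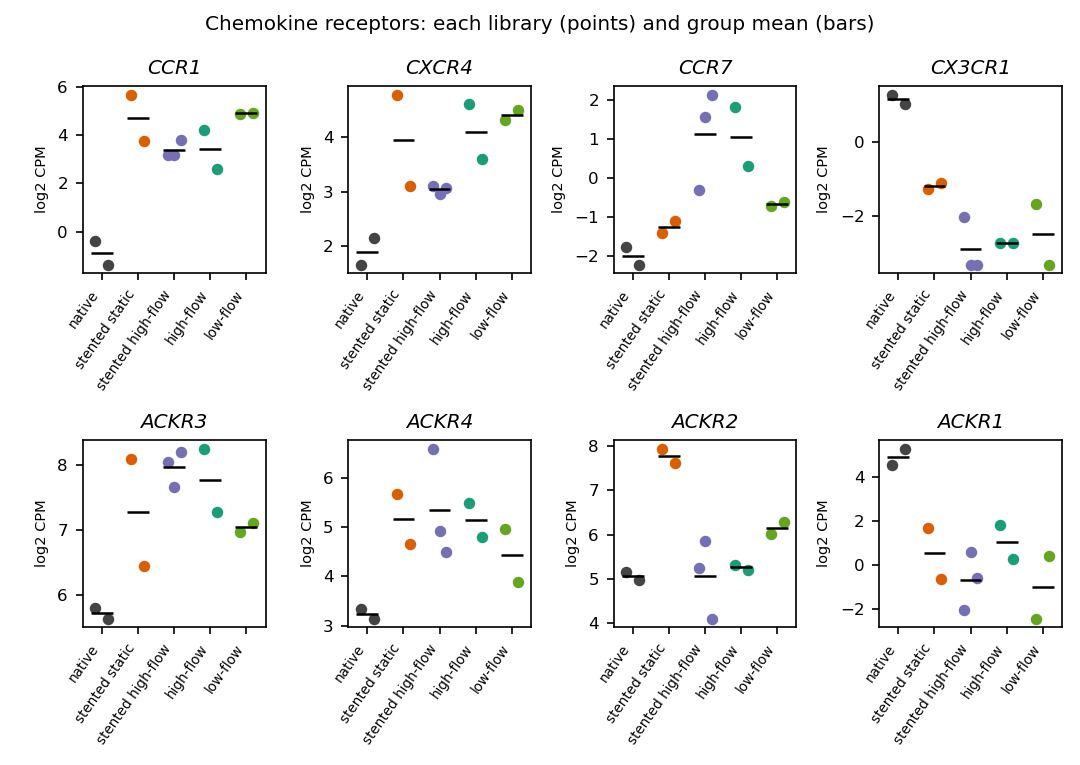
Each panel shows 1 receptor or atypical receptor, with the log2 CPM of each library as a point (vertical axis, with its own range per panel) by group (horizontal axis) and the group mean as a bar. CCR1 lies above native in all 9 cultured libraries, and ACKR2 is highest in the stented static pair, at 246 and 199 CPM.

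Read by ligand and receptor, the CXCL12 axis combined a lower ligand in all 4 cultured groups with CXCR4 called higher in 3 and the scavenger ACKR3 called higher in 3. In the CCR7 axis, CCL19 was lower in all 4 groups, whereas edgeR called CCL21 lower in stented high-flow vessels only. CCR7 was higher in both groups under the stronger flow, and edgeR called the scavenger ACKR4 higher in stented high-flow vessels. For the neutrophil attractants, CXCL8 was higher in the 3 perfused groups and CXCL2 lower in all 4. For the CXCR3 axis CXCL9 and CXCL10 were lower in stented high-flow vessels, but CXCL9 met the count minimum only through native. CXCL11 and CXCR3 were under that minimum. On chromosome 12, CCL14 and CCL2 lie 1180 kb apart and moved in opposite directions in all 4 comparisons. All of these statements concern RNA levels against the same 2 native libraries.

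The second question of the design is what flow does in a stented vessel. Stented high-flow against stented static vessels gave 4 calls among the 28 tested members, 1 higher and 3 lower, where 2.85% of all genes were called (1.18% higher, 1.67% lower). CXCL8 was 28.4-fold higher by mean CPM (4.76 ± 0.90 on the log2 scale, edgeR adjusted p = 0.0231). ACKR2 was 5.92-fold lower (-2.56 ± 0.40, adjusted p = 0.0110), and CCL14 4.27-fold lower (-2.08 ± 0.49, 0.0488). CCL21 was called lower (-6.40 ± 1.27, 0.0280). In all 4 genes the 3 stented high-flow libraries lay on one side of both stented static ones. As the genes were picked by calls on these same libraries, that order is no further support. The median of the tested members was -0.72, and over all genes it was 0.01.

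Of these calls, ACKR2 was kept in each single-library omission. CXCL8 lost its call without stented static replicate 1 or 2 (0.104 and 0.0625), with a value of 5.66 without the former and 3.91 without stented high-flow replicate 3. CCL14 kept its call only without stented static replicate 2 or stented high-flow replicate 3, and otherwise had an adjusted p of 0.0678 to 0.307, with -2.96 without stented high-flow replicate 3. CCL21 dropped to -1.87 (0.424) when stented static replicate 1 was omitted and stood at -7.35 when replicate 2 was, and its call was also lost without any one of the stented high-flow libraries (0.0561 to 0.0851). Both stented static libraries carry the d suffix of 3 and lack Y-linked transcripts, so flow, that label and Y-linked transcripts cannot be told apart here.

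Several members missed the threshold in that comparison with the main edgeR fit. CCL2 differed by 1.65 ± 0.40 (edgeR adjusted p = 0.0522), CXCL14 by 1.90 ± 0.53 (0.0815), CCR7 by 3.04 ± 0.85 (0.0822) and CXCL9 by -3.91 ± 1.04 (0.0707). DESeq2 called each of them, with a DESeq2 adjusted p of 0.00147, 0.00558, 0.0102 and 0.0416 in that order. With no filter on counts, edgeR called them too. In CCL2, CXCL14 and CCR7 all 3 stented high-flow libraries were above both stented static ones, an order that adds no support to the test on the same libraries. For CXCL9 the pooled counts were 1 and 16, a ratio of 20.4 in favour of stented static (95% counting interval 3.16 to 854).

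**Figure D5:**
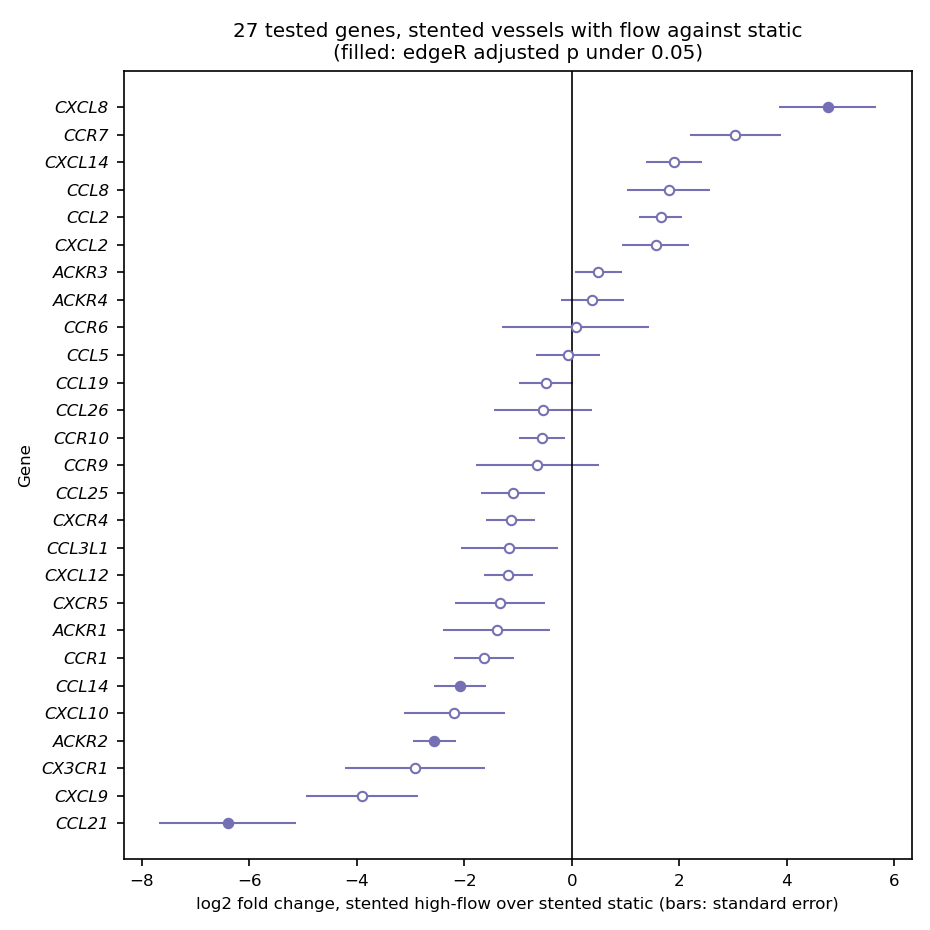
Points give the log2 fold change of stented high-flow over stented static vessels (horizontal axis) for 27 tested genes (vertical axis, ordered by value), with bars for the standard error and filled points for an adjusted p under 0.05. CXCL8 lies at 4.76, CCL14 at -2.08, ACKR2 at -2.56 and CCL21 at -6.40, and these are the 4 filled points.

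The weaker and stronger flows without a stent were compared directly, and none of the 28 members was called by edgeR (0 calls, with 0.104% of all genes called, 0.0261% higher and 0.0782% lower). At an unadjusted p under 0.05 there were 3, a count given without its share over all genes. DESeq2 called 1 member, CCL3L1, likewise without that share. That gene was at 1.11 and 14.8 CPM in low-flow and 0.356 and 1.03 CPM in high-flow vessels, so low-flow replicate 2 sets the difference (3.52 ± 1.02, edgeR adjusted p = 0.481). CCR7 was also at an unadjusted p under 0.05 (-2.08 ± 0.83, adjusted p = 0.584), and its pairs did not overlap. The low-flow libraries lack the Y-linked transcripts that the high-flow libraries hold, so flow and Y-linked transcripts cannot be told apart in this comparison.

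Stented against unstented vessels under the same flow also gave 0 calls with edgeR, as for all genes (0% called), and 0 with DESeq2. At an unadjusted p under 0.05 there were 5 members, a count given without its share over all genes. CCL19 was lower with a stent (-1.74 ± 0.50, unadjusted p = 0.00493), CCL21 lower (-2.89 ± 1.17, 0.0314), CXCR4 lower (-1.16 ± 0.45, 0.0270), CCL8 higher (2.04 ± 0.78, 0.0247) and CCL2 higher (0.87 ± 0.38, 0.0445). The adjusted p was 1 for each, so none of these differences passed the test, which with 3 against 2 libraries does not show that the groups are alike.

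A test of any difference among the 4 cultured groups, which does not use the native libraries' level, called 1 member, ACKR2 (edgeR adjusted p = 0.0247), where 1.02% of all genes were called. Of the 28 members 14 had an unadjusted p under 0.05. DESeq2 called 10 in the same test, ACKR2, CCL2, CCL3L1, CCL14, CCL19, CCL21, CCR7, CXCL8, CXCL9 and CXCL14. Neither count has its share over all genes beside it here, so neither is read as a result about the members. The ACKR2 call was lost without either native library, stented static replicate 1, high-flow replicate 1 or either low-flow library (adjusted p = 0.0540 to 0.103). As the stented static and low-flow libraries lack Y-linked transcripts, treatment and Y-linked transcripts cannot be told apart in this test. The smallest adjusted p after ACKR2 with edgeR were those of CCL21 (0.0600) and CXCL8 (0.0932).

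A further 12 genes with such names stayed under the count minimum and were not tested, namely the ligands CCL1, CCL4, CCL16, CCL17, CCL27, CCL28, CXCL11 and XCL1 and the receptors CCR3, CCR4, CXCR3 and CXCR6. CCL4, a macrophage inflammatory protein, had 23 and 6 counts in the native libraries and at most 1 in any other. No identifier carried the symbol of CX3CL1, CXCL16, CCL11, CCR2 or CXCR2, and these genes were not analysed here.

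Chemoattractants whose names fall outside the rule were followed as a list of 8 tested genes, of which 2, 4, 2 and 2 were higher and 2, 2, 1 and 1 lower in the 4 comparisons with native (stented static first, then stented high-flow, then high-flow, then low-flow), where 5.54%, 10.4%, 5.94% and 5.03% of all genes were called higher and 7.19%, 13.9%, 8.86% and 7.38% lower. Their medians were -0.05, 0.33, 0.70 and 0.06. PPBP, the platelet chemokine precursor, had 0 native counts and 93 in stented high-flow vessels, 33 in high-flow vessels and 47 in low-flow vessels, at least 19.1-fold, 9.20-fold and 9.87-fold higher against a floor of 3 counts over the native pair (edgeR adjusted p = 0.00330, 0.0137 and 0.0152). AMCF-II, a porcine CXC chemokine, rose in stented high-flow vessels (6.03 ± 1.39, 0.0105), where its libraries held 0.789, 12 and 24.1 CPM against 0.130 and 0.230 in native. GPR35, an orphan receptor reported to bind chemokine-like ligands, rose by 2.87 ± 0.56 to 3.51 ± 0.57 in the 4 groups (0.00194 to 0.00897). CD74, the invariant chain and receptor of the cytokine MIF, fell by 3.10 ± 0.72 to 4.02 ± 0.64 (0.00156 to 0.0200).

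Among 25 genes of chemokine receptor signalling, such as G protein subunits, arrestins and receptor kinases, 0, 1, 0 and 1 were higher and 3, 7, 4 and 3 lower in the same order, where 12.7%, 24.3%, 14.8% and 12.4% of all genes were called. Their medians were 0.03, -0.24, -0.24 and -0.08. RGS16, which switches off G-protein signals, changed by -3.97 ± 0.69 in stented high-flow (edgeR adjusted p = 0.00248), -2.46 ± 0.75 in high-flow (0.0494) and -2.56 ± 0.75 in low-flow vessels (0.0474). PLCB2, the leukocyte phospholipase that chemokine receptors activate, fell by 2.90 ± 0.48 in stented high-flow (0.00191) and by 2.51 ± 0.54 in high-flow vessels (0.0116). RGS2 changed by -1.85 ± 0.44 in stented static (0.0210) and -2.12 ± 0.44 in low-flow vessels (0.0122), and the haematopoietic GTPase RAC2 by -2.12 ± 0.64 in stented high-flow vessels (0.0349).

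Of 23 inducers of chemokines and NF-kB genes, 3, 3, 1 and 2 were higher and 6, 4, 4 and 5 lower, against the same shares of 12.7%, 24.3%, 14.8% and 12.4% of all genes called. Their medians were -0.41, 0.05, -0.03 and -0.03. NFKBIA, the NF-kB inhibitor that NF-kB itself induces, changed by -2.31 ± 0.52, -3.31 ± 0.46, -3.11 ± 0.54 and -3.06 ± 0.53 (edgeR adjusted p = 0.0170, 0.000788, 0.00437 and 0.00566). The alarmin IL33 rose in the 3 perfused groups by 3.82 ± 0.48, 3.13 ± 0.48 and 2.88 ± 0.48 (0.000473, 0.00258 and 0.00435), and was 2.59 ± 0.45 higher in stented high-flow than in stented static vessels (0.0169). The cytokine IL6 fell in stented static (-3.26 ± 0.75, 0.0185) and low-flow vessels (-3.39 ± 0.75, 0.0156) and was higher in stented high-flow than in stented static vessels (3.04 ± 0.71, 0.0484). The adhesion molecule SELP was called in stented static vessels alone (-4.14 ± 1.15, 0.0393).

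The list of 18 genes that trim chemokines or hold them on the matrix had 6, 9, 5 and 8 members higher and 1, 0, 0 and 0 lower, where 5.54%, 10.4%, 5.94% and 5.03% of all genes were called higher and 7.19%, 13.9%, 8.86% and 7.38% lower. Their medians were 0.87, 1.31, 1.14 and 1.01. MMP9, a protease that cleaves CXCL8 and CXCL12 among other substrates, had 3 native counts and 768 in stented static vessels, 10506 in stented high-flow vessels, 13065 in high-flow vessels and 17897 in low-flow vessels. Its ratio to native was 201 (95% counting interval 68.4 to 976), 2160 (739 to 10500), 3640 (1250 to 17700) and 3760 (1290 to 18200), and the edgeR adjusted p was 0.000150 to 0.00173. ANPEP, an aminopeptidase that trims chemokines, rose by 4.69 ± 0.48, 4.14 ± 0.46, 3.93 ± 0.47 and 4.20 ± 0.47 (0.000244 to 0.000830). The collagenase MMP1, with 2 native counts, was called in stented static (edgeR adjusted p = 0.0202), stented high-flow (0.0226) and low-flow vessels (0.0262). Its libraries were far apart, with 42.6 and 2.43 CPM in stented static vessels, 0.861, 8.70 and 14.9 in stented high-flow vessels and 6.94 and 22.7 CPM in low-flow vessels. The macrophage elastase MMP12 rose in stented high-flow (5.23 ± 1.31, 0.0152) and low-flow vessels (8.30 ± 1.40, 0.00475), at 9.55 and 70.6 CPM in the latter.

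The authors' deposited tables list genes they called against native with their log2 fold changes. They hold 8 of the members for stented static, 14 for stented high-flow, 16 for high-flow and 12 for low-flow vessels. The quasi-likelihood test called 8, 14, 13 and 11 of these with the same sign. CCL21, CCL8 and CXCL10 in high-flow and CCL21 in low-flow vessels stand in the authors' deposited lists (-3.21, -2.25, -3.27 and -4.45) and were not called in the main edgeR fit. A further 5, 4, 2 and 2 members were called here and are not in those tables.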

How the data were processed

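The authors deposited 2 tables of whole-number gene counts, whose native columns are identical, and 4 lists of log2 fold changes against native, which the authors computed (used only as a check). Reads were trimmed with Trimmomatic, checked with FastQC, placed on Sscrofa11.1 and tested with DESeq2, as the submitters' processing notes name them. No source used here gives the aligner, annotation release or strand setting. The count tables were joined by identifier, with groups taken from the labels and 0 columns of unmapped values. The joined counts went into edgeR 4.0.16 (R 4.3.3, limma 3.58.1), with filterByExpr, TMM factors and quasi-likelihood F-tests from 1 fit of all 11 libraries, Benjamini-Hochberg adjusted over 15348 genes at 0.05, with 7 comparisons and 1 test among the cultured groups. Log2 CPM for plots used a prior count of 2. The SE of a log2 fold change is its absolute value divided by the square root of the quasi-likelihood F, and is only approximate at low counts. A fold stands on mean CPM, and groups with 1 to 3 pooled counts are given as count ratios with exact 95% intervals. Libraries held 13.5 to 26.8 times 1e6 counts, and the common dispersion was 0.126, so precision is set by the small number of libraries.

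Members called at least once, and CXCL12, CXCL8, CXCL2, CCL2, CX3CL1, CXCL14, CXCR4 and ACKR3 where measured, are given in every library, and from each related list up to 4 called genes with the largest change against native. The members and lists were chosen with earlier results of these data known, and the lymphatic and Y-linked genes were added after values were seen. Alternatives were DESeq2 1.42.0, RLE size factors, a filter of at least 10 counts in every library or none, the replicate number as a block, 1 count table alone and leaving out each library in turn. Leaving out stented static replicate 1 and low-flow replicate 2 together was chosen after seeing the data. Of the members, 1 is counted but its own values are not reported here. Single-library omissions were summarised for the members. The script was tested on simulated data.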

Additional observations from a re-analysis of the deposited data

How the results depend on the processing

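All 63 member calls of the 7 comparisons held with DESeq2 and 58 with the replicate number as a block; 31 held in every single-library omission and 32 were lost in at least 1. Leaving out single libraries gave 5 to 14 calls in stented static, 13 to 20 in stented high-flow, 7 to 18 in high-flow and 6 to 16 in low-flow vessels against native, 1 to 5 in stented high-flow against stented static and 0 to 3 among the cultured groups. With at least 10 counts in every library, which left 14 members to test, the counts were 9 in stented high-flow, 9 in high-flow and 7 in low-flow vessels against native and 2 in stented high-flow against stented static. With no filter there were 8 in the latter comparison and 9 among the cultured groups. One count table alone gave 20 in low-flow against native and 1 in stented high-flow against stented static, and could not be fitted for stented high-flow against high-flow or among the cultured groups. DESeq2 gave 8 in stented high-flow against stented static, 1 in low-flow against high-flow and 10 among the cultured groups. Without stented static replicate 1 and low-flow replicate 2 together the counts were 7 in stented static against native, 0 in stented high-flow against stented static and 0 among the cultured groups. The value that reversed was CCL21 in stented static against native, 0.31 with all libraries and -4.22 (without stented static replicate 1) to 1.27 (without replicate 2) when single libraries were left out. Shares of all genes called under each alternative are not given here, so these counts alone do not set the members apart from other genes. Causes of these shifts were not tested, apart from the fewer genes or libraries that an alternative leaves.

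Over 20 pairs of same-numbered libraries of different groups, deviations from the group means correlated at -0.329 to 0.183, with 6 pairs over 0.1. In groups of 2 libraries the deviations mirror each other, so high-flow with low-flow gave 0.183 under both replicate numbers. The pairs are thus not independent and cannot decide whether replicate numbers pair the samples. The native and stented high-flow libraries that share a label number differ in replicate number, and their correlation was not examined. With the replicate block the counts were 12, 17, 15 and 14 against native, 3 in stented high-flow against stented static, 0 in both other comparisons and 2 among the cultured groups. Genes with few counts, such as CXCL9, CX3CR1 and CCR6, are limited by depth.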
